A study of Homo sapiens with 24 samples.

Results

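The 10 genes described here encode subunits of the transcription factor AP-1 or close relatives of them. They were chosen by name, as FOS, FOSB, FOSL1, FOSL2, JUN, JUNB, JUND, ATF3, BATF3 and MAFF, out of 25702 gene identifiers counted in each library, and all 10 passed the filter on low counts. RNA sequencing was carried out on IMR90 cells, a line of human diploid lung fibroblasts, at passages 23-28. Every culture, controls included, carried a retroviral ER:HRAS(G12V), in which oncogenic HRAS is fused to the oestrogen receptor and is switched on by 4-hydroxytamoxifen (4OHT). Each culture also carried either the empty MSCV vector or MSCV miR30 shHMGA1, a hairpin against the mRNA of the chromatin protein HMGA1. The 4 groups of 6 biological replicates were growing (vector, no 4OHT), shHMGA1 (hairpin, no 4OHT), RIS (vector, 6 days of 4OHT) and RIS+shHMGA1 (hairpin, 6 days of 4OHT), RIS standing for RAS-induced senescence. No group received 4OHT without the RAS fusion, so 4OHT itself and active RAS cannot be told apart.

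AP-1 is a dimer of basic leucine zipper proteins that binds a short palindromic DNA site. A FOS protein (FOS, FOSB, FOSL1, FOSL2) needs a partner to bind DNA, mostly a JUN protein (JUN, JUNB, JUND). JUN proteins can also pair among themselves and with relatives such as ATF3 and BATF3. FOS, FOSB, JUN and ATF3 are immediate early or stress genes, whose mRNAs rise briefly after a stimulus, while FOSL1 is a later gene whose mRNA stays high under lasting RAS to ERK signalling. AP-1 is known in fibroblasts for driving matrix metalloproteinase and cytokine genes.

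Library totals ran from 8698070 to 23103424 assigned reads, with a median of 10604083. HMGA1 itself lay at 639 to 861 counts per 1000000 assigned reads (CPM) in the 12 vector libraries and at 54.4 to 262 CPM in the 12 hairpin libraries. Replicates 1 to 4 lay at 98.7 to 143 CPM in shHMGA1 and at 197 to 262 CPM in RIS+shHMGA1. Replicates 5 and 6 were lower, at 54.4 to 58.1 CPM in shHMGA1 and at 60.0 to 75.1 CPM in RIS+shHMGA1. On the whole transcriptome, 2 libraries stood apart from their labels on the principal component that held 73.85% of the variance. The library labelled growing replicate 4 had a score of 77.3, against -84.3 to -57.2 in the other growing libraries and 52.5 to 84.1 in RIS+shHMGA1. Its HMGA1 level was 667 CPM, within the range of the vector libraries. The library labelled RIS replicate 2 had a score of -77.1, against 16.8 to 62.1 in the other RIS libraries. Whether their labels are right was not tested, so comparisons were made with all 24 libraries and with the 22 others. All 9 fibroblast markers were expressed in every library, whereas the summed epithelial and endothelial markers did not exceed 1.35 and 2.01 CPM in any. Of the leukocyte markers CD68 lay at 40.2 to 105 CPM, PTPRC stayed at or below 0.688 CPM, and CD3E was at 0 in 23 of 24 libraries. The summed fibroblast markers moved with 4OHT, from 14249 to 20247 CPM in shHMGA1 to between 4535 and 5909.6 CPM in RIS+shHMGA1. The sum also moved with the hairpin alone, since the growing libraries other than replicate 4 lay at 22790 to 40297 CPM, above every shHMGA1 library. Single markers did not all go this way. DCN and LUM lay higher in every shHMGA1 library than in these growing libraries, and COL1A1, COL1A2 and THY1 lower. With 22 libraries 1 of the 9 was called higher and 1 lower in shHMGA1 against growing. The part of the fibroblast markers in the results below was not tested. In bulk RNA, fewer cells that express a gene and less of its RNA per cell cannot be told apart.

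The promoters of these genes are shown first because AP-1 genes are controlled by factors of their own class and by serum and ERK signals at short sites next to the start. RefSeq windows (build GRCh38.p14) from 250 bases before to 50 bases after the start were searched on both strands for 8 members, 2 of which had 2 windows. FOSL1 and BATF3 were not analysed here for motifs. The AP-1 site TGANTCA occurred in 7.71% of all 35116 windows, TGACNTCA in 7.72%, its subset TGACGTCA, the cAMP response element, in 1.85%, TATAAA in 11.5% and the CArG box bound by serum response factor in 1.29%. The capitals below mark the match in a stretch of 30 bases, shown for the 6 members whose values moved most between groups among those searched.
FOS (chr14:75278783-75278812, plus strand): taaaacgcttgtTATAAAagcagtggctgc
FOSB (chr19:45467954-45467983, plus strand): gggtcccgggcaTATAAAtacaggctggcg
FOSL2 (chr2:28392850-28392879, plus strand): gtgccattgtagTGACTCAtctcgggcaga
JUN (chr1:58784096-58784125, minus strand): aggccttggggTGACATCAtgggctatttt
ATF3 (chr1:212565273-212565302, plus strand): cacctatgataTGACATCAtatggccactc
MAFF (chr22:38201929-38201958, plus strand): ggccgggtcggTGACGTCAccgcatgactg
FOS, FOSB and JUNB held TATAAA starting at positions -33, -30 and -31 from the start, and the second ATF3 window held it at -230. TGACATCA started at -67 in JUN and at -123 in ATF3, and TGACGTCA at -54 in MAFF and at -200 in JUND. Of the 10 windows, that of FOSL2 was alone in holding TGANTCA, 5 bases into the transcript, and a CArG box was found in none of them, which says nothing of sites farther away.

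With 4OHT, FOS and FOSB moved the opposite way to FOSL1, the FOS-family gene with the highest level per length. In hairpin cells, RIS+shHMGA1 against shHMGA1, 3 of the 10 genes were called higher (FOSB 3.27-fold, FOS 1.99-fold and MAFF 1.57-fold) and FOSL1 was called lower, to 52.9% of its level. A gene was called at an adjusted p under 0.01 (edgeR quasi-likelihood test, Benjamini-Hochberg over 13356 genes) with an absolute log2 fold change over 0.58. Of all genes tested in that comparison, 19.6% were called higher and 19.5% lower, so shares of 3 and 1 in 10 are not far from the background. The median log2 fold change of the 10 genes was 0.49, beside -0.02 over all genes tested.

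In vector cells, RIS against growing, edgeR called none of the 10 genes with all 24 libraries and 0% of all genes. Of the 10, 7 had an unadjusted edgeR p under 0.05, beside 4407 of all 13356 genes. DESeq2 called 1 of the 10, FOSB, and 829 of all 13356 genes. Leaving out growing replicate 4 alone gave 4 calls among the 10, where 3420 of 13450 genes were called. Leaving out RIS replicate 2 alone gave 3, where 2579 of 13435 genes were called. With both libraries that stood apart left out, 4 rose (FOSB 4.17-fold, ATF3 2.42-fold, FOS 1.77-fold and MAFF 1.60-fold) and 2 fell (FOSL1 to 51.3% and FOSL2 to 65.8% of the growing level). In that comparison 19.2% of 13416 genes were called higher and 20.5% lower. The median log2 fold change of the 10 genes was then 0.55, beside -0.01 over all genes tested. In hairpin cells the 22 libraries gave 4 higher and 1 lower, ATF3 joining the others, where 22.5% of all genes were called higher and 21.9% lower.

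**Figure D1:**
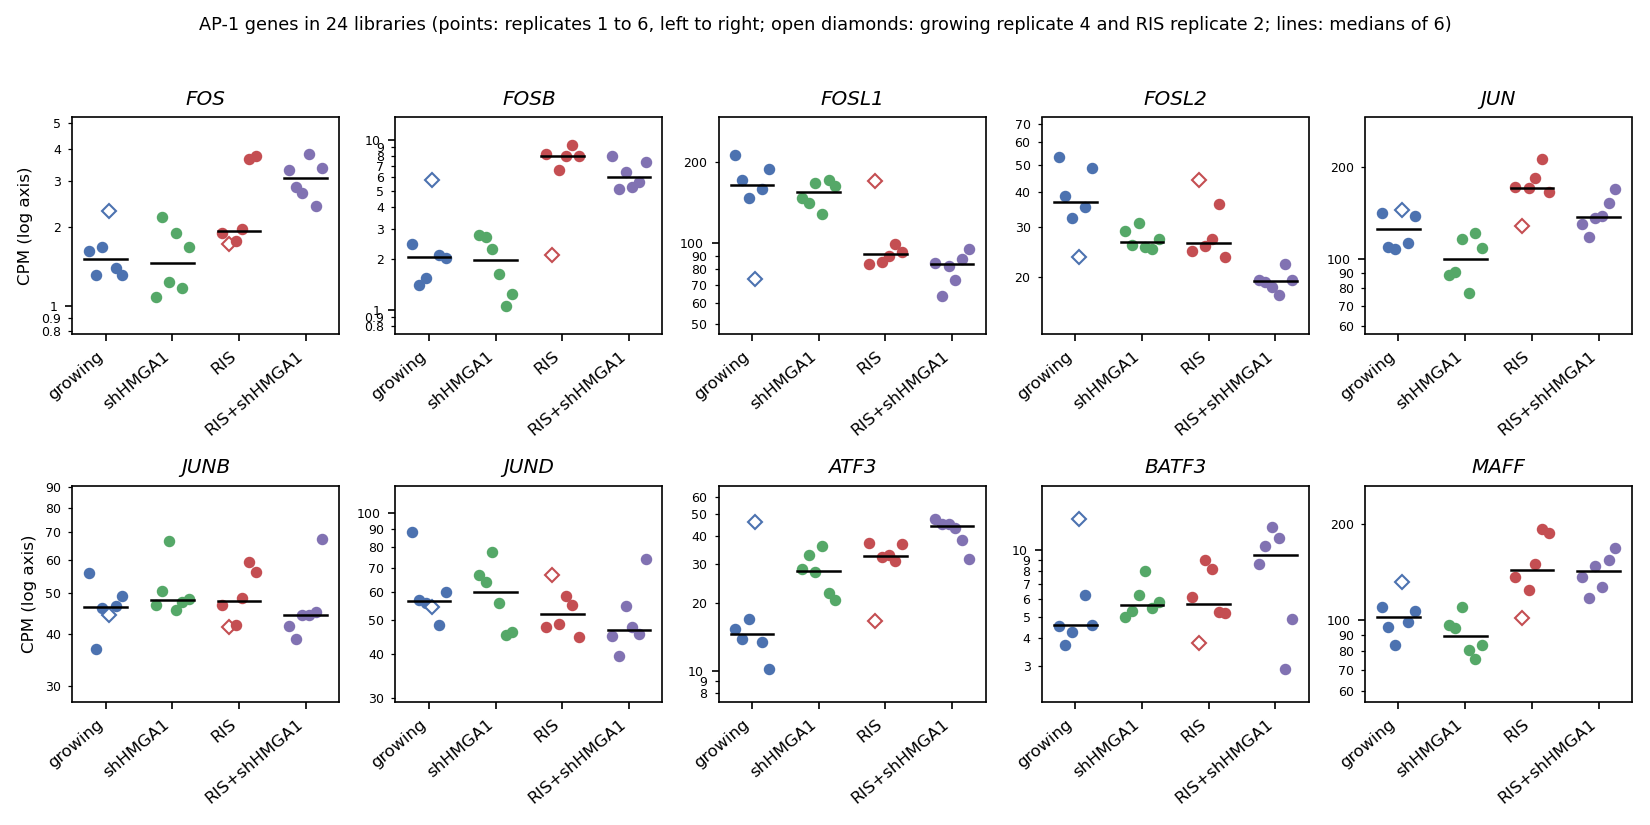
CPM on log axes of each AP-1 gene in the 24 libraries, in the order growing, shHMGA1, RIS and RIS+shHMGA1; each point is a replicate (1 to 6 from left to right), the line is the median of 6, and open diamonds are growing replicate 4 and RIS replicate 2. For FOSB the diamond of growing lies at 5.79 CPM among the 4OHT libraries and that of RIS at 2.09 CPM among those without 4OHT, and for FOSL1 the same libraries lie at 73.4 and 171 CPM.

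FOSL1 encodes FRA-1, a FOS protein without the carboxy-terminal activation domain of FOS, and lies on chromosome 11 from 65659520 to 65668044 on the minus strand (hg19, as for all genes below). Its level in growing libraries was 73.4 CPM at the lowest, 165 at the median and 212 at the highest, and in RIS 83.7, 91.3 and 171 CPM. In shHMGA1 it was 129, 155 and 172 CPM, and in RIS+shHMGA1 63.6, 83.6 and 95.5 CPM. Every RIS+shHMGA1 library was below every shHMGA1 library, and the overlap in vector cells came from the 2 libraries that stood apart. Without them growing began at 147 CPM and RIS ended at 99.1 CPM. The log2 fold change was -0.92 (SE 0.20, edgeR adjusted p = 0.000754) in hairpin cells. In vector cells it was -0.61 (SE 0.20, edgeR adjusted p = 0.039) with 24 libraries and -0.96 (SE 0.12, edgeR adjusted p = 1.57e-07) with 22. The difference of these 2 responses was -0.30 (SE 0.28) on the log2 scale with 24 libraries and 0.04 (SE 0.16) with 22, neither of which was called.

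FOSL2 encodes FRA-2, a second FOS-related protein, on chromosome 2 from 28615315 to 28640184 on the plus strand. It lay at 23.5, 37.0 and 53.5 CPM (lowest, median, highest) in growing, at 25.1, 26.6 and 31.1 CPM in shHMGA1, at 23.6, 26.4 and 44.1 CPM in RIS and at 17.3, 19.4 and 22.2 CPM in RIS+shHMGA1. The doubly treated cells thus held the lowest level, without overlap with any other group. Against growing, FOSL2 fell in RIS+shHMGA1 by 1.00 on the log2 scale (SE 0.17, edgeR adjusted p = 0.000159). Against shHMGA1 the change was -0.50 (SE 0.17, edgeR adjusted p = 0.0138), which passed neither threshold. RIS against growing gave -0.36 (SE 0.17) with 24 libraries and -0.60 (SE 0.13, edgeR adjusted p = 0.000368) with 22, and there the groups overlapped through RIS replicate 5.

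FOS, the founding member and a classical immediate early gene, lies on chromosome 14 from 75745529 to 75748933 on the plus strand. It was scarce 6 days into treatment, with 13 to 43 reads in a library, so counting error alone is a large part of its spread. FOS lay at 1.31, 1.51 and 2.31 CPM in growing, at 1.08, 1.45 and 2.19 CPM in shHMGA1, at 1.72, 1.93 and 3.74 CPM in RIS and at 2.41, 3.08 and 3.80 CPM in RIS+shHMGA1. All 6 RIS+shHMGA1 libraries were above all 12 libraries without 4OHT. In hairpin cells FOS rose by 0.99 on the log2 scale (SE 0.23, edgeR adjusted p = 0.00142), a call lost when replicate 1 of every group was left out (0.87). In vector cells it differed by 0.63 (SE 0.23, edgeR adjusted p = 0.0674) with 24 libraries and rose by 0.82 (SE 0.24, edgeR adjusted p = 0.00461) with 22. That rise was carried by RIS replicates 5 and 6, at 3.64 and 3.74 CPM, while RIS replicates 1, 3 and 4 lay between 1.76 and 1.96 CPM. With numbers 5 and 6 left out of all groups as well, the vector value was 0.27 (SE 0.27, edgeR adjusted p = 0.379) and the hairpin value 0.93 (SE 0.23, edgeR adjusted p = 0.00125).

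FOSB, whose product is closest to FOS and which is likewise an immediate early gene, lies on chromosome 19 from 45971253 to 45978437 on the plus strand. Its level in growing was 1.39, 2.05 and 5.79 CPM, and in RIS 2.09, 8.0 and 9.31 CPM. In shHMGA1 it was 1.05, 1.95 and 2.74 CPM, and in RIS+shHMGA1 5.11, 6.02 and 7.99 CPM. The highest growing and the lowest RIS values were those of the libraries that stood apart, and without them growing ended at 2.42 CPM and RIS began at 6.66 CPM. FOSB showed the widest change of the 10 genes in either comparison with 4OHT, a rise of 1.71 (SE 0.34, edgeR adjusted p = 0.000462) on the log2 scale in hairpin cells and, over 22 libraries, of 2.06 (SE 0.22, edgeR adjusted p = 1.79e-08) in vector cells. The 24 libraries gave 1.51 (SE 0.33, edgeR adjusted p = 0.0148) in vector cells. Reads per library ran from 17 to 110.

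JUN, the main partner of the FOS proteins, lies on chromosome 1 from 59242517 to 59249720 on the minus strand. It lay at 107, 126 and 144 CPM in growing, at 77.5, 99.7 and 121 CPM in shHMGA1, at 128, 172 and 213 CPM in RIS and at 118, 137 and 170 CPM in RIS+shHMGA1. With both libraries that stood apart left out, every RIS library (166 CPM or more) was above every growing library (142 CPM or less). The log2 fold change in vector cells was 0.46 (SE 0.13, edgeR adjusted p = 0.0284) with 24 libraries, which passed neither threshold, and 0.57 (SE 0.13, edgeR adjusted p = 0.000484) with 22. In hairpin cells it was 0.49 (SE 0.13, edgeR adjusted p = 0.00346) with 24. The last 2 values passed the threshold on p and lay under that on fold, so JUN was not called in any of these fits.

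JUNB, which can act against JUN on the same sites, and JUND, the JUN gene most tied to resting cells, gave the smallest changes of the 10 in hairpin cells. JUNB (chromosome 19, 12902300 to 12904129, plus strand) had medians between 44.5 and 48.1 CPM in the 4 groups, and single libraries ran from 36.8 to 67.5 CPM. JUND (chromosome 19, 18390504 to 18392432, minus strand) had medians from 46.6 CPM in RIS+shHMGA1 to 59.8 CPM in shHMGA1, and single libraries ran from 39.5 to 88.3 CPM. In both genes all 4 groups overlapped. The change with 4OHT was 0.08 (SE 0.13) for JUNB in vector cells and -0.12 (SE 0.13) in hairpin cells, and that of JUND was -0.18 (SE 0.17) and -0.21 (SE 0.17), on the log2 scale over 24 libraries. Neither gene passed the threshold in any of the comparisons with 24 or with 22 libraries. JUNB shares 259 exonic bases with HOOK2 on the opposite strand, and since the strand setting of the counting was not given in the sources used here, reads there cannot be assigned with certainty.

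ATF3 encodes a stress-induced partner of JUN that represses as a homodimer, on chromosome 1 from 212738676 to 212794119 on the plus strand. Its level was 10.2, 14.6 and 46.0 CPM in growing, 20.7, 28.1 and 36.2 CPM in shHMGA1, 16.7, 32.5 and 37.4 CPM in RIS and 31.6, 44.5 and 47.8 CPM in RIS+shHMGA1. The library labelled growing replicate 4 gave the 46.0 CPM, and without it the highest growing value was 17.1 CPM, below every other library of the remaining 3 groups but RIS replicate 2. Over 22 libraries ATF3 rose with 4OHT by 1.28 (SE 0.15, edgeR adjusted p = 1.28e-07) in vector cells and by 0.59 (SE 0.13, edgeR adjusted p = 0.000501) in hairpin cells, where the starting level was higher. The hairpin value lay at the threshold on fold and was not called with numbers 5 and 6 left out as well (0.51, SE 0.10). The 24 libraries gave 0.70 (SE 0.27, edgeR adjusted p = 0.0777) and 0.59 (SE 0.27, edgeR adjusted p = 0.0605). The difference between both responses was -0.69 (SE 0.20, edgeR adjusted p = 0.536) over 22 libraries, which was not called, and -0.12 (SE 0.38) over 24.

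BATF3 encodes a small leucine zipper protein best known from dendritic cells, on chromosome 1 from 212859759 to 212873182 on the minus strand. Its levels were 3.72, 4.57 and 13.8 CPM in growing, 4.98, 5.64 and 8.01 CPM in shHMGA1, 3.81, 5.68 and 8.98 CPM in RIS and 2.91, 9.48 and 12.7 CPM in RIS+shHMGA1. The last group was split, with replicates 1 to 4 between 8.63 and 12.7 CPM and replicates 5 and 6 at 2.91 and 4.86 CPM, and in RIS replicates 5 and 6 were likewise the lowest once replicate 2 was set aside. BATF3 was not called with 24 libraries in any comparison. Over 22 libraries it was called in RIS+shHMGA1 against growing alone, at 0.85 (SE 0.26, edgeR adjusted p = 0.0052). With numbers 5 and 6 also left out it was called in both comparisons with 4OHT, at 0.90 (SE 0.20, edgeR adjusted p = 0.000602) in vector cells and 0.79 (SE 0.17, edgeR adjusted p = 0.000369) in hairpin cells.

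MAFF encodes a small MAF protein, which lacks an activation domain and pairs with cap'n'collar factors and with FOS proteins, on chromosome 22 from 38596774 to 38612514 on the plus strand. Its level was 83.6, 102 and 131 CPM in growing, 75.5, 89.0 and 109.6 CPM in shHMGA1, 102, 143 and 193 CPM in RIS and 117, 142 and 168 CPM in RIS+shHMGA1. The hairpin groups did not overlap, and the vector groups did so through growing replicate 4 and RIS replicate 2 alone. MAFF rose by 0.65 on the log2 scale (SE 0.15, edgeR adjusted p = 0.001) in hairpin cells, and by 0.68 (SE 0.13, edgeR adjusted p = 0.00011) in vector cells over 22 libraries, against 0.51 (SE 0.15, edgeR adjusted p = 0.0266) over 24. Replicates 5 and 6 were the highest in both 4OHT groups, at 193 and 187 CPM in RIS and at 154 and 168 CPM in RIS+shHMGA1. Without numbers 5 and 6 the values were 0.51 (SE 0.13) and 0.44 (SE 0.11), under the threshold on fold, and leaving out number 6 alone brought the hairpin value to 0.58, just under it. MAFF shares 326 exonic bases with PLA2G6 on the opposite strand.

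**Figure D2:**
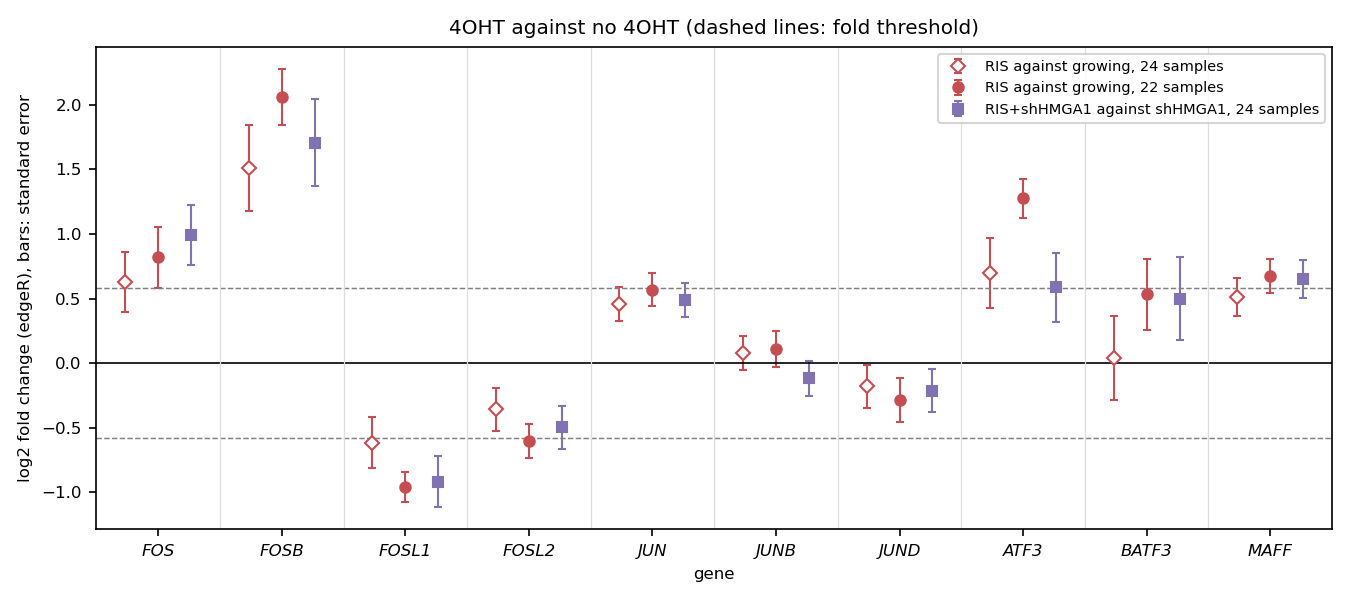
Log2 fold changes with 4OHT (vertical axis) of the 10 AP-1 genes, with standard errors as bars and the fold threshold of 0.58 dashed; diamonds and circles are RIS against growing with 24 and 22 libraries, squares are RIS+shHMGA1 against shHMGA1 with 24. FOSB lies highest in each comparison with 24 libraries (1.51 and 1.71) and FOSL1 lowest (-0.61 and -0.92), while JUNB and JUND lie between -0.29 and 0.11 in all of them.

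The hairpin against HMGA1 asks whether loss of this chromatin protein alters the same genes. In cells without 4OHT, shHMGA1 against growing, none of the 10 genes was called with 24 libraries, where 0.270% of all genes were called. FOSL2 and JUN had an unadjusted edgeR p of 0.00561 and 0.0218, and 1759 of all 13356 genes had one under 0.05. DESeq2 called none of the 10 either. With 22 libraries ATF3 rose by 0.99 (SE 0.15, edgeR adjusted p = 0.000147), to 1.99 times the growing level, and FOSL2 fell by 0.61 (SE 0.12, edgeR adjusted p = 0.00324). FOSL2 was not called without growing replicate 4 alone (-0.61, edgeR adjusted p = 0.0292) or with numbers 5 and 6 left out as well (-0.57, edgeR adjusted p = 0.00662). With 22 libraries 1.21% of all genes were called higher and 1.39% lower. The groups of both genes did not overlap once growing replicate 4 was set aside, FOSL2 ending at 31.1 CPM in shHMGA1 and beginning at 32.4 CPM in growing. The value of ATF3 with all 24 libraries was 0.55 (SE 0.27, edgeR adjusted p = 0.394).

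In cells with 4OHT, RIS+shHMGA1 against RIS, none of the 10 genes was called, where 2.55% of all genes were called with 24 libraries and 12.5% with 22. At an unadjusted edgeR p under 0.05 stood FOSL2 and JUN with 24 libraries, beside 6647 of all 13356 genes. DESeq2 called 1 of the 10, FOSL2, beside 1573 of all 13356 genes. FOSL2 came nearest, at -0.64 (SE 0.17, edgeR adjusted p = 0.013) with 24 libraries and -0.51 (SE 0.13, edgeR adjusted p = 0.00507) with 22, the first past the threshold on fold and the second past that on p. Its groups did not overlap. JUN gave -0.29 (SE 0.13) and -0.36 (SE 0.12, edgeR adjusted p = 0.0227). FOSL1, whose change with 4OHT was among the widest, differed by -0.35 (SE 0.20) between RIS+shHMGA1 and RIS with 24 libraries and by -0.15 (SE 0.11) with 22. FOSB differed by -0.16 (SE 0.32) and -0.35 (SE 0.19).

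The interaction of hairpin and 4OHT was not called for any of the 10 genes with either set of libraries (0% of 13356 genes with 24). With 24 libraries none of the 10 had an unadjusted edgeR p under 0.05, beside 1371 of all 13356 genes. DESeq2 also called none of the 10. When the doubly treated cells were set against growing, 3 were called higher (FOSB, ATF3, FOS) and 2 lower (FOSL1, FOSL2) with 24 libraries, where 22.0% of all genes were called higher and 23.9% lower. FOSB and ATF3 lost their calls without replicate 1 of every group (1.27 and 1.03) and without replicate 3 (1.23 and 1.08), FOSB also without replicate 6 (1.25) and FOS without replicate 1 (0.92). With 22 libraries the counts were 4 and 2, where 28.3% and 28.5% were. ATF3 reached 2.19 times and, over 22 libraries, 2.99 times the growing level in RIS+shHMGA1, and FOSL2 50.0% and 46.4% of it. These comparisons share the growing or the RIS+shHMGA1 libraries with those above and are not independent of them.

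**Figure D3:**
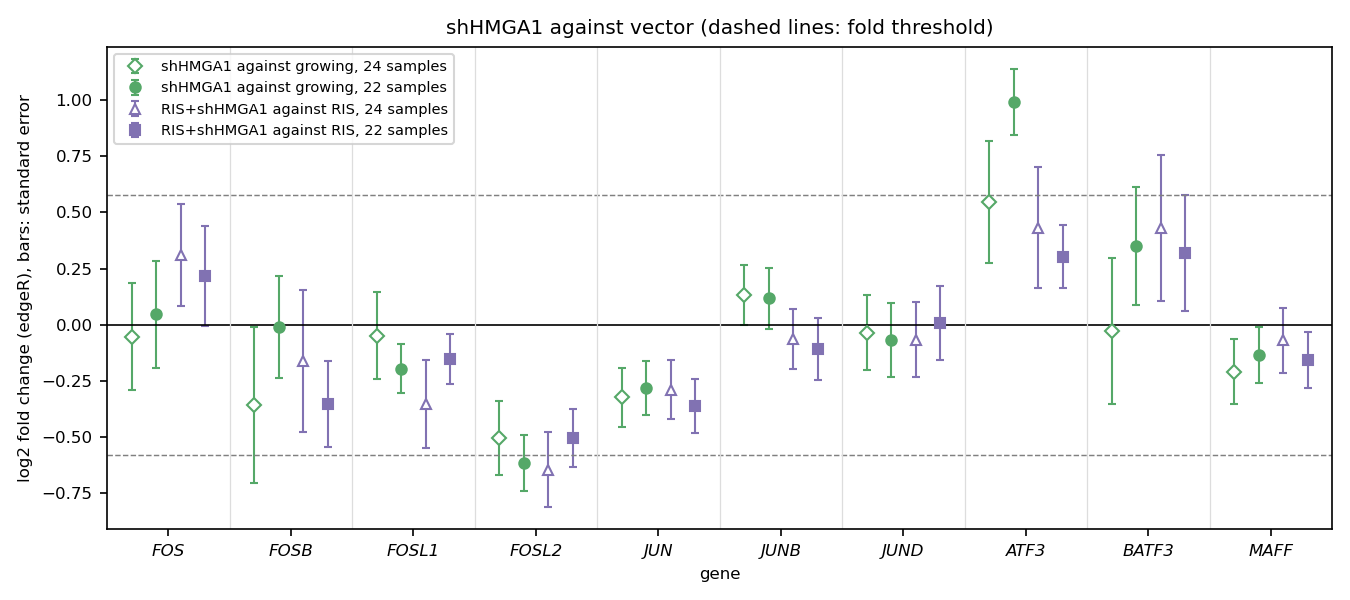
Log2 fold changes with the hairpin (vertical axis) of the 10 AP-1 genes, with standard errors as bars and the fold threshold of 0.58 dashed; open marks are fits with 24 libraries and filled marks with 22, for the hairpin against the vector without 4OHT (shHMGA1 against growing) and with it (RIS+shHMGA1 against RIS). FOSL2 lies between -0.64 and -0.50 in all 4 fits, and ATF3 lies above 0 in all 4, at 0.99 in shHMGA1 against growing with 22 libraries.

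Levels can be compared between genes only per length, here as CPM per kb of the canonical transcript, and they are given with the libraries that stood apart left out. In growing cells FOSL1 stood at 103 ± 15.1 (SD, n = 5) and FOSL2 at 6.21 ± 1.34, while FOS and FOSB stood at 0.696 ± 0.084 and 0.500 ± 0.112. In RIS these levels were 53.0 ± 3.58, 4.10 ± 0.759, 1.24 ± 0.474 and 2.13 ± 0.25 (SD, n = 5). FOSL1 therefore still held most of the FOS-family mRNA in RIS, at 87.7% ± 1.09 of the summed level per length against 93.3% ± 0.337 in growing. The share of FOSB went from 0.452% ± 0.0764 to 3.52% ± 0.287, and that of FOS from 0.642% ± 0.135 to 2.02% ± 0.651.

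The summed FOS-family level per length was 111 ± 16.5 CPM per kb in growing and 60.4 ± 4.76 in RIS (SD, n = 5), and 95.4 ± 9.78 in shHMGA1 and 53.7 ± 6.90 in RIS+shHMGA1 (SD, n = 6). The RIS+shHMGA1 libraries ended at 62.5 CPM per kb, below the 80.9 at which the shHMGA1 libraries began. The JUN family summed to 95.2 ± 15.4 in growing, 89.4 ± 11.9 in shHMGA1, 109.8 ± 10.6 in RIS and 95.5 ± 17.0 CPM per kb in RIS+shHMGA1. Within it JUN made up 39.5% ± 2.41 in growing and 50.7% ± 1.50 in RIS, and 34.6% ± 5.35 in shHMGA1 and 45.7% ± 2.81 in RIS+shHMGA1. The summed FOS-family mean was below the JUN-family mean in both groups with 4OHT, by either measure of length. In cells without 4OHT it was above it on this scale, but with the merged length of all annotated exons the order turned in shHMGA1 (85.9 against 86.3 CPM per kb) and, with all 6 libraries, in growing (90.4 against 91.5). With that merged length, FOSL1 made up 93.4% and 88.7% of the FOS family in growing and RIS.

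**Figure D4:**
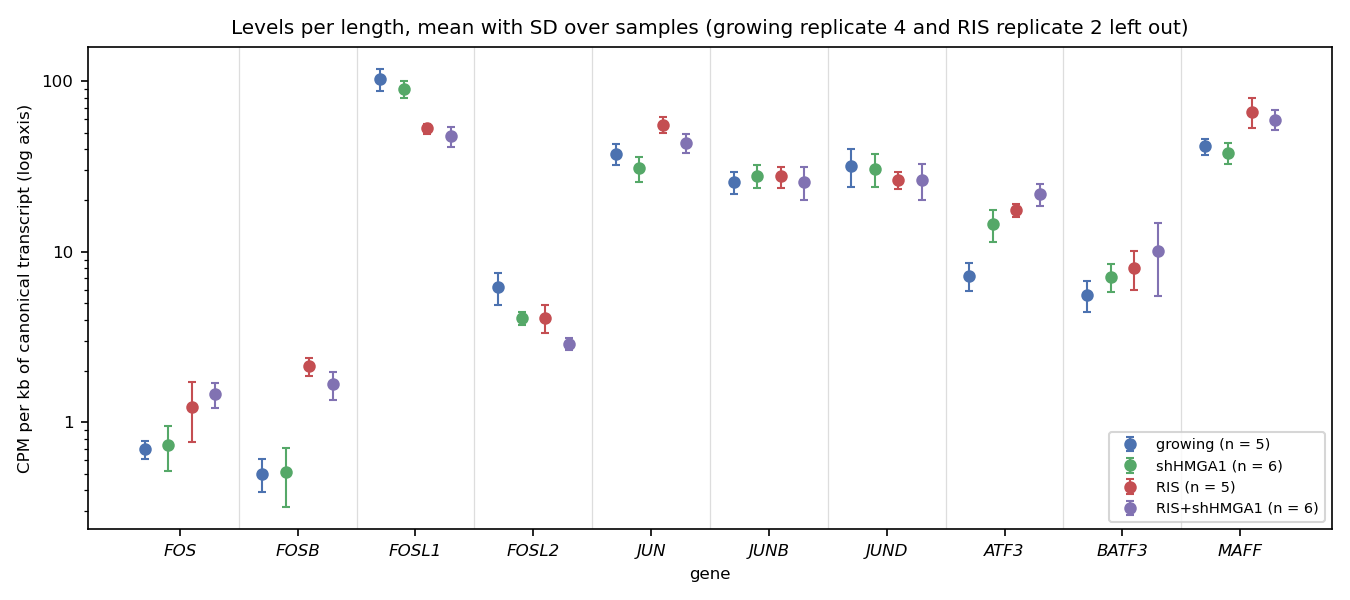
Mean CPM per kb of canonical transcript (log axis) of each AP-1 gene by group, with SD over libraries as bars, growing replicate 4 and RIS replicate 2 left out. FOSL1 stands highest in growing (103) and shHMGA1 (90.1), while in the 4OHT groups MAFF (66.5 and 59.6) lies above it and FOS and FOSB stay lowest in all groups. With the merged exon length MAFF (28.1 and 25.2) lies below FOSL1 (47.8 and 43.0) in the 4OHT groups.

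Among the 3 remaining genes, MAFF stood at 41.6 ± 4.37 CPM per kb in growing and 66.5 ± 12.9 in RIS, ATF3 at 7.22 ± 1.32 and 17.6 ± 1.53, and BATF3 at 5.60 ± 1.14 and 8.07 ± 2.08 (SD, n = 5). In RIS+shHMGA1 they stood at 59.6 ± 7.89, 21.7 ± 3.12 and 10.1 ± 4.57 CPM per kb (SD, n = 6). By median CPM without the libraries that stood apart, the groups followed the order growing, shHMGA1, RIS, RIS+shHMGA1 from low to high in FOS, ATF3 and BATF3, and that order exactly reversed in FOSL1 and FOSL2. FOSB, JUN and MAFF were lowest in shHMGA1 and highest in RIS. Neighbours in these orders overlapped in all these genes, except growing against shHMGA1 in ATF3 and FOSL2, RIS against RIS+shHMGA1 in FOSL2, shHMGA1 against RIS in FOSL1, and growing against RIS+shHMGA1 in FOSB and MAFF.

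Other genes of the pathway are given by lists. Of 12 other basic leucine zipper genes 8 were tested, and in RIS+shHMGA1 against shHMGA1 none was called higher and JDP2, a repressor that pairs with JUN, was called lower at -1.11 (SE 0.26, edgeR adjusted p = 0.0014). JDP2 lay at 11.3 to 12.3 CPM in shHMGA1 and at 4.34 to 6.45 CPM in RIS+shHMGA1. The median of these 8 was -0.08 on the log2 scale. Of all genes tested in that comparison, 19.6% were called higher and 19.5% lower. In vector cells none of the 8 was called with 24 libraries (JDP2 at -0.97, SE 0.25). With 22 libraries 2 were called higher and 2 lower, JDP2 among the latter at -1.52 (SE 0.12), beside 19.2% and 20.5% of all genes.

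Of 17 kinases and ETS or SRF factors that act on AP-1 genes, 2 rose and 2 fell in hairpin cells, with a median of 0.02. Of all genes, 19.6% were called higher there and 19.5% lower, so shares of 2 in 17 are not far from the background. All 4 that moved were kinases: the ribosomal S6 kinases RPS6KA1 (1.87, SE 0.34), RPS6KA3 (1.07, SE 0.18) and RPS6KA2 (-1.49, SE 0.35), which act below ERK, and the neuronal JNK gene MAPK10 (-1.41, SE 0.35), on the log2 scale with edgeR adjusted p of at most 0.00214. MAPK10 did not exceed 2.79 CPM in any shHMGA1 library. The transcription factors of this list were not called, with ELK1 at 0.45 (SE 0.10) and SRF at -0.51 (SE 0.19) on the log2 scale.

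The other immediate early genes did not follow FOS and FOSB as a group. Of 20, 18 were tested, and in hairpin cells 5 rose and 9 fell, with a median of -0.67, beside 19.6% and 19.5% of all genes. PTGS2, which encodes cyclooxygenase-2, rose by 2.93 (SE 0.70) from 105 to 381 CPM across shHMGA1 to 1587 to 2363 CPM across RIS+shHMGA1. KLF2 fell by 3.84 (SE 0.76), NR4A2, an orphan nuclear receptor gene, by 3.06 (SE 0.48), and CCN2, the matricellular gene also called CTGF, by 2.98 (SE 0.55) on the log2 scale. CCN2 lay at 608 to 788 CPM in shHMGA1 and at 59.2 to 138 CPM in RIS+shHMGA1. In vector cells none was called with 24 libraries (median -0.47), and 22 libraries gave 5 higher and 9 lower, with a median of -0.65, beside 19.2% and 20.5% of all genes.

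Known AP-1 target genes were mostly higher with 4OHT. In hairpin cells 10 of 16 were called higher and 2 lower, where 19.6% of all genes were called higher and 19.5% lower. The median log2 fold change of the 16 was 1.74, beside -0.02 over all genes tested. The matrix metalloproteinase genes MMP3 (3.75, SE 0.84), MMP10 (3.60, SE 1.01) and MMP1 (2.99, SE 0.73) and the neutrophil chemokine gene CXCL8 (3.20, SE 0.76) rose the most, with edgeR adjusted p of at most 0.0044. MMP1 lay at 8272 to 14159.6 CPM in shHMGA1 and at 51978 to 105097 CPM in RIS+shHMGA1. CD44, which encodes a hyaluronan receptor, was among those that fell (-0.85, SE 0.22) and was chosen for mention after its value was seen. In RIS against growing none of the 16 was called with 24 libraries (median 0.88). With 22 libraries 11 were called higher and 2 lower, with a median of 1.75, beside 19.2% and 20.5% of all genes. Known targets of AP-1 are also targets of other factors, and the list was drawn up with earlier results of these data known.

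**Figure D5:**
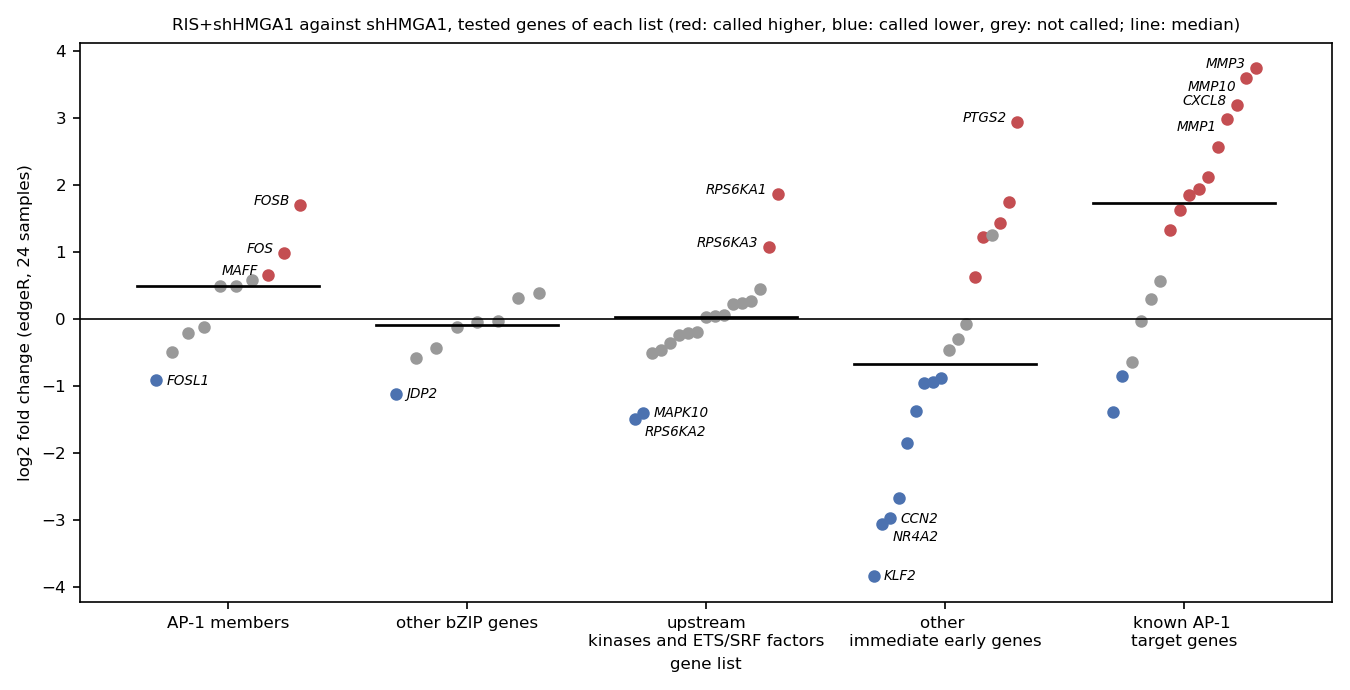
Log2 fold changes (vertical axis) in RIS+shHMGA1 against shHMGA1 over 24 libraries of the tested genes in each list, sorted by value, with medians as lines; red points are called higher, blue lower and grey not called. The medians are 0.49 for the AP-1 genes, -0.67 for the other immediate early genes and 1.74 for the known target genes.

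The genes whose patterns were most like those of the members were sought over all 24 libraries as the smallest root mean square difference of log2 CPM, each gene centred on its own mean, among genes with a mean log2 CPM of at least 2. For FOSL1, whose own spread was 0.51, the nearest were CTDSP1 (0.10), TLNRD1 (0.13) and PATZ1 (0.13), and for FOSL2 (own spread 0.43) they were NDST1 (0.11), RUSC2 (0.12) and BCL9L (0.12). FOSB, with the widest spread at 0.96, was nearest to ZC3H12A (0.20), THEMIS2 (0.29) and VEGFA (0.31). ZC3H12A encodes a ribonuclease that degrades cytokine mRNAs, and VEGFA is itself among the listed AP-1 targets.

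MAFF (own spread 0.37) was nearest to the stress kinase gene PLK3 (0.12), to CSRNP1 (0.14) and to NUMB (0.15), and JUN (own spread 0.35) to LPCAT1 (0.11), KAT2A (0.12) and TMEM250 (0.13). The differences were wider for ATF3, BATF3 and FOS than for MAFF and JUN, and so were their own spreads. ATF3 (own spread 0.63) had HBP1, THTPA and EPHX4 at 0.25 to 0.26, BATF3 (0.56) had CENPV, UCK2 and EIF4E2 at 0.22 to 0.31, and FOS (0.51) had C1orf56, LYAR and ZFYVE28 at 0.30. JUNB (0.21) was nearest to TMEM158, ADRM1 and DNTTIP1 at 0.12 to 0.14, and JUND (0.28) to CDIPT, EMC10 and SDF4 at 0.16. No member that passed the limit on mean log2 CPM was among the 3 nearest genes of another member. FOS, at no more than 3.80 CPM in any library, lay under that limit and could not be named.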

How the data were processed

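RNA from 24 cultures was sequenced from stranded poly(A) libraries on a HiSeq 2500. According to the submitters' processing notes and the study's methods, the authors trimmed reads with cutadapt 1.10.0, aligned them to hg19 with STAR 2.5.0b and counted them per Entrez gene with Rsubread, whose strand setting and annotation were not given in the sources used here. The deposited files held raw read counts. They were tested with edgeR 4.0.16 (TMM, filterByExpr by group, quasi-likelihood test on group means over all 24 libraries, Benjamini-Hochberg), with DESeq2 1.42.0 and limma 3.58.1 in R 4.3.3 as alternatives, and the edgeR steps were tested on simulated data. CPM used TMM library sizes. A gene was called at an adjusted p under 0.01 where its log2 fold change was also above 0.58 or below -0.58, after the study's methods. P-values measure only the spread between these cultures. No libraries of a group agreed within sampling noise. Library totals of 8698070 to 23103424 set the precision. Lengths came from the GENCODE annotation of hg19. The members, the lists and their naming rule (all 10 members, up to 4 called genes a list with the widest change in RIS+shHMGA1 against shHMGA1, 3 nearest genes a member) were chosen with earlier results of these data known, and the fits without the 2 libraries that stood apart, and without replicates 5 and 6 besides, were chosen after seeing the data. Replicate numbers were not taken to pair the libraries. The values of 1 gene of the target list are not reported here.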

Additional observations from a re-analysis of the deposited data

Results flagged for a closer look

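In each of 40 sets of 6 CPM values (10 genes in 4 groups), the gap between the highest or lowest library and its neighbour was divided by the range of the set. A gap this wide is met by chance in about 1 in 20 sets, or 2 of 40, and 10 sets had it. The library labelled growing replicate 4 accounted for 4 of them, being high in ATF3 (0.807 of the range, 46.0 CPM), FOSB (0.766, 5.79 CPM), BATF3 (0.746, 13.8 CPM) and FOS (0.629, 2.31 CPM). The library labelled RIS replicate 2 accounted for 3, being high in FOSL1 (0.823, 171 CPM) and low in ATF3 (0.688, 16.7 CPM) and FOSB (0.633, 2.09 CPM). Both libraries stood apart across the transcriptome too. The other 3 sets were of JUN genes: JUNB was high in shHMGA1 replicate 3 (0.764, 66.7 CPM) and in RIS+shHMGA1 replicate 6 (0.783, 67.5 CPM), and JUND in growing replicate 1 (0.712, 88.3 CPM).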

How the results depend on the processing

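Of the values recomputed under other settings, 712 kept their direction and side of the thresholds, 57 passed where they had not, 10 no longer passed and 31 changed sign. In RIS against growing the number of AP-1 genes called went from 0 to 1 with DESeq2 and 6 with voom sample weights. At an adjusted p under 0.05 it was 2, beside 1537 of all 13356 genes. It was 6 without both libraries that stood apart and 5 without numbers 5 and 6 as well. Leaving out single replicates gave 0 to 4. Such fits dropped a replicate number from all groups, or growing replicate 4 or RIS replicate 2 alone. In shHMGA1 against growing the number of AP-1 genes called went from 0 to 1 with voom and 2 without both libraries. It was 1 without numbers 5 and 6 as well, and 0 to 1 over single replicates left out. In RIS+shHMGA1 against RIS it went from 0 to 1 with DESeq2 and at an adjusted p under 0.05, FOSL2 being called lower in both. At an adjusted p under 0.05, 2898 of all 13356 genes were called there. With voom 1 of the AP-1 genes was called higher in that comparison and none lower. Over single replicates left out the count in that comparison went from 0 to 1. In RIS+shHMGA1 against growing the count of 5 became 2 to 6 over single replicates. The replicate block left these counts as they were, except for FOSL2 in RIS+shHMGA1 against RIS, where 1 gene was called, and with both libraries left out the replicate block gave 6 in RIS against growing and 2 in shHMGA1 against growing, and in RIS+shHMGA1 against growing took the count from 6 to 5, BATF3 (0.71, edgeR adjusted p = 0.0114) losing its call. Deviations from the group means correlated at 0.175 on average between libraries of the same number and at -0.0496 between those of other numbers, over 0.1 in 24 of 36 same-number pairs and as low as -0.594. No label states a pairing, and it was to be taken as shown only with every pair over 0.1, which was not met. The causes were not tested.

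Changes of sign were met in values that had not been called. In shHMGA1 against growing, BATF3 (-0.03) became 0.043 with the replicate block, 0.42 with voom, 0.35 without both libraries, 0.26 with the replicate block besides and 0.55 without numbers 5 and 6 as well, and ran from -0.13 to 0.35 over single replicates. FOS (-0.05) became 0.13 with voom and 0.048 both without the libraries and without numbers 5 and 6 as well, and ran from -0.23 to 0.054. FOSB (-0.36) became 0.26 with voom, 0.033 without both libraries under the replicate block and 0.33 without numbers 5 and 6, and ran from -0.60 to 0.028. JUND (-0.03) became 0.044 with voom and ran from -0.15 to 0.081, and FOSL1 (-0.05) ran from -0.20 to 0.076. In RIS against growing, JUNB (0.08) became -0.012 without both libraries and numbers 5 and 6, and BATF3 (0.04) ran from -0.18 to 0.42. In RIS+shHMGA1 against RIS, JUND (-0.07) became 0.0078 without both libraries and 0.016 with the replicate block besides, and ran from -0.25 to 0.071, and JUNB (-0.06) ran from -0.15 to 0.010.

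Counts over all genes moved too. RIS against growing went from 0 genes to 829 with DESeq2, 6317 with voom, 5331 without both libraries and 6444 without numbers 5 and 6 as well. shHMGA1 against growing went from 36 to 99, 845, 348 and 964, to 23 with no filter and to 5 in a fit of those 12 libraries alone. RIS+shHMGA1 against RIS went from 341 to 1573, 1856, 1677 and 1404, to 1637 with the replicate block and to 189 with no filter. Fits with single replicates left out dropped a replicate number from all groups, or growing replicate 4 or RIS replicate 2 alone. The counts then ran from 0 to 3420 in RIS against growing and from 5 to 67 in shHMGA1 against growing. They ran from 14 to 2555 in RIS+shHMGA1 against RIS and from 3037 to 5777 in RIS+shHMGA1 against shHMGA1. In RIS+shHMGA1 against growing they ran from 3058 to 7543. Each highest count came from leaving out growing replicate 4 alone. The depth of 13 to 43 reads for FOS limits what can be said of it.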
